A study of Mus musculus with 9 samples.

Results

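Col6a1, Col6a2, Col6a3, Col8a1, Col12a1, Col14a1, Col15a1, Col16a1 and Col18a1 were named as the beaded, network and fibril-associated collagens, and their levels were followed in mouse hepatic stellate cells that had received exosomes. Of these 9 genes, 7 had a row among the 11051 protein-coding genes of the table used here. Col14a1 and Col15a1 had no row in it and were not analysed here. The members were taken by gene symbol and not by their measured values.

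Hepatic stellate cells are the collagen-producing pericytes of the liver. They were isolated from livers of C57BL/6 mice and grown in medium whose serum had been depleted of exosomes. Exosomes came from Panc02 cells in one group and from KPC cells in another, both being mouse pancreatic adenocarcinoma lines. In the control group they came from pancreatic duct epithelial cells taken directly from mice, so all groups were exosome-treated. Each group held 3 libraries, and the labels name no genetic change. The exosome dose, the exposure time, the age of the mice and the number of mice behind each library are not given in the labels.

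Collagen VI is a heterotrimer whose chains are encoded by Col6a1, Col6a2 and Col6a3. Its trimers assemble inside the cell into larger units and outside it into beaded microfilaments, which lie between the fibrils of collagens I and III and the cell surface. Collagen VIII is a short-chain collagen that forms networks. Collagens XII, XIV and XVI have interrupted triple helices and sit on or near fibrils, while collagens XV and XVIII carry glycosaminoglycan chains in basement membrane zones. The C-terminal fragment of collagen XVIII is endostatin.

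Levels are given in FPKM, a unit that divides the fragments of a gene by its length and by the size of the library, so levels can be set side by side between genes. In control cells, Col6a1 averaged 120.2 ± 7.12 FPKM (SD, n = 3), higher than 97.4% of all genes in the table. Col6a2 at 40.8 ± 1.36 FPKM, Col16a1 at 37.1 ± 7.45 FPKM, Col6a3 at 30.7 ± 1.69 FPKM and Col8a1 at 27.9 ± 4.37 FPKM followed. In the control libraries, Col6a1 lay above every other member. The next 4 were not all separate in FPKM, since Col16a1 ran between 29.5 and 44.4, across the whole range of Col6a2 and into those of Col6a3 and Col8a1. Col12a1 averaged 6.51 ± 0.223 FPKM and Col18a1 0.733 ± 0.0285 FPKM.

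**Figure D1:**
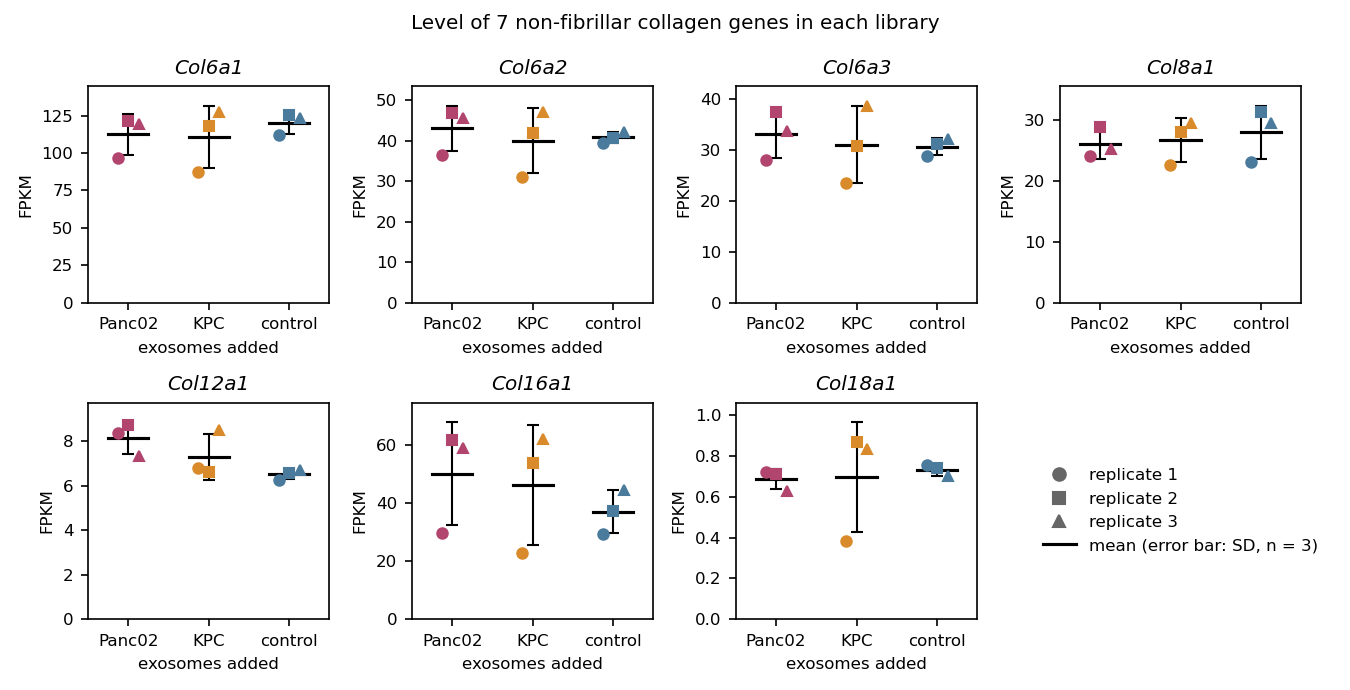
Level in FPKM (vertical axes, linear and starting at 0) of the 7 members with a row, by the exosomes added (horizontal axes). Points are libraries, with the symbol giving the replicate number, and bars are means with SD (n = 3). Col6a1 ranged from 87.4 to 127 FPKM over all 9 libraries, and Col16a1 from 22.9 to 62.2 FPKM, with the replicate 1 library lowest in every group for Col6a1 and Col16a1.

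Libraries with replicate number 1 stood apart from the others in all groups. Mitochondrially encoded genes made up 28.3% of summed FPKM in the Panc02 library, 33.6% in the KPC library and 26.4% in the control library numbered 1, against 11.2% to 15.9% in the other 6. Of 11 stellate cell markers, 4 had a row, and their summed level ran from 260 to 316 FPKM in Panc02, 263 to 311 in KPC and 304 to 342 in control libraries. Most of it was Vim at 232 to 303 FPKM, while Pdgfrb, Hgf and Ecm1 each lay between 7.52 and 20.3 FPKM. The stellate markers Des and Lrat had no row. The test described below called 0 of the 4, and with the replicate number as a block it called Hgf lower for Panc02 exosomes (log2 fold change -0.45, limma adjusted p = 0.0835, block 0.0369). All 7 hepatocyte markers had no row, 1 of 8 endothelial markers and 3 of 8 macrophage and leukocyte markers had one, with sums between 0.984 and 6.10 FPKM. Of 10 portal fibroblast markers 8 had a row, with sums of 142 to 196, 125 to 204 and 137 to 162 FPKM in Panc02, KPC and control libraries. Markers within that sum differed in direction. Mfap4 had 2.48, 1.23 and 2.62 FPKM in Panc02, 0.681, 0.917 and 1.81 in KPC and 0.120, 0.0599 and 0 in control libraries, and rose with Panc02 exosomes (log2 fold change 1.52, limma adjusted p = 0.0255). That call was lost without Panc02 replicate 1 or 3, KPC replicate 2 or any control library (0.0534 to 0.139). Mfap4 entered the test only with the Panc02 libraries, where it was high, since the filter described below asks for 1 FPKM in at least 3 libraries. With the block Fbln2 was higher for both lines (block adjusted p 0.00387 and 0.0187), Cd34 was lower for both (-0.45 and -0.33, block 0.00954 and 0.0476) and Slit2 was lower for Panc02 exosomes (-0.48, block 0.0328). Among mesothelial markers, 2 of 7 had a row, with sums of 49.3 to 88.6, 48.1 to 95.03 and 76.7 to 113 FPKM in Panc02, KPC and control libraries, nearly all of it Msln. Duct epithelial markers, 5 of 8 with a row, summed to 25.9 to 36.7, 23.0 to 25.5 and 21.5 to 23.9 FPKM in Panc02, KPC and control libraries, most of it Sox9 at 19.3 to 23.3 FPKM. Krt8 had 6.54, 2.14 and 2.53 FPKM in Panc02, 1.74, 1.93 and 1.70 in KPC and 0.251, 0.127 and 1.27 in control libraries, so that neither line overlapped the controls. Its log2 fold change with Panc02 exosomes was 1.57 (limma adjusted p = 0.107, block 0.0476). Krt19 and Epcam had 3.89 and 3.89 FPKM in Panc02 replicate 1, and at most 1.01 and 0.767 FPKM in the other 8 libraries. The part of these markers and of the mitochondrial share in the results below was not tested, and in such bulk samples fewer cells of a type and less RNA per cell cannot be told apart.

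No member passed the test in any comparison. Each gene was tested with limma on log2(FPKM + 1) over the 10368 genes that reached 1 FPKM in at least 3 libraries, with two-sided p-values adjusted by Benjamini-Hochberg over all of them and a threshold of 0.05. Col18a1 stayed under 1 FPKM in every library, which left 6 members tested. The count was 0 of 6 for Panc02 against control exosomes, where 1.01% of all tested genes passed, and 0 of 6 for KPC against control exosomes, where 0.328% passed. Between Panc02 and KPC exosomes it was 0 of 6, with 0% of all genes passing in limma and 86 of 10368 at an unadjusted p under 0.05. A count of 0 of 6 lies near those background shares. The median log2 fold change of the 6 members was 0.08 with Panc02 and -0.03 with KPC exosomes, beside -0.00 and -0.01 over all tested genes. Both comparisons share the same 3 control libraries.

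The collagen VI genes were the most abundant members. Col6a1, which encodes the alpha 1 chain, had 96.9, 121 and 119.6 FPKM in the Panc02 libraries (replicates 1 to 3), 87.4, 118 and 127 FPKM in the KPC libraries and 112, 125 and 123 FPKM in the control libraries. The groups overlapped, and the lowest value of each was in replicate 1. Its log2 fold change was -0.10 with Panc02 exosomes (95% interval -0.46 to 0.26) and -0.13 with KPC exosomes (-0.49 to 0.23). On the linear scale of FPKM + 1, these intervals run from 0.728-fold to 1.197-fold and from 0.711-fold to 1.17-fold.

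Col6a2, which encodes the alpha 2 chain, had 36.5, 46.9 and 45.5 FPKM in the Panc02 libraries, 31.1, 41.9 and 47.0 FPKM in the KPC libraries and 39.5, 40.6 and 42.2 FPKM in the control libraries. The groups overlapped, and the controls lay inside the range of each tumour exosome group. Its log2 fold change was 0.07 with Panc02 exosomes (-0.30 to 0.43) and -0.05 with KPC exosomes (-0.41 to 0.32). Col6a3 encodes the longest chain, alpha 3, whose C-terminal fragment is called endotrophin. It had 28.2, 37.5 and 33.9 FPKM in the Panc02 libraries, 23.6, 30.9 and 38.8 FPKM in the KPC libraries and 28.9, 31.2 and 32.2 FPKM in the control libraries. Here too the groups overlapped, with log2 fold changes of 0.10 (-0.31 to 0.51) for Panc02 and -0.01 (-0.42 to 0.40) for KPC exosomes. The 95% intervals were narrower with the replicate block. For Panc02 exosomes they ran from -0.30 to 0.10 for Col6a1, -0.16 to 0.30 for Col6a2 and -0.17 to 0.36 for Col6a3. For KPC exosomes they ran from -0.33 to 0.06, -0.28 to 0.18 and -0.27 to 0.26 for the same genes, and every interval in either fit included 0.

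Col6a1 and Col6a2 lie on the same strand of chromosome 10, 85161 bases apart in GRCm38, at chr10:76708792-76726168 and chr10:76595762-76623630 on the minus strand. Col6a3 lies at chr1:90765923-90843971, also on the minus strand. Their longest transcripts in GENCODE M21 have 35, 27 and 44 exons for Col6a1, Col6a2 and Col6a3. No exon base of any of the 7 members was shared with another gene there. The collagen VI genes kept within a narrow range of proportions to each other across libraries, while Col16a1 varied most. Relative to Col6a1, Col8a1 ranged from 0.205 to 0.258 over the libraries, much as Col6a3 did at 0.249 to 0.309. The bases upstream of the gene starts are shown for the collagen VI genes and Col16a1, and their part in these levels was not tested. They come from RefSeq promoters of build GRCm38.p6 and are written 5′ to 3′ on the gene's strand. The windows are chr10:76726169-76726294 for Col6a1 (minus strand, the 126 bases upstream of both the RefSeq and the GENCODE start), chr10:76623631-76623880 for Col6a2 (minus), chr1:90843972-90844221 for Col6a3 (minus) and chr4:130047590-130047839 for Col16a1 (plus). Capitals mark matches on either strand to the 5 short motifs described after the sequences.
Col6a1: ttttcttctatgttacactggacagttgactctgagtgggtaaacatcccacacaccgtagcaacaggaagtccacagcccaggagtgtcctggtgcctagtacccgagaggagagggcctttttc
Col6a2: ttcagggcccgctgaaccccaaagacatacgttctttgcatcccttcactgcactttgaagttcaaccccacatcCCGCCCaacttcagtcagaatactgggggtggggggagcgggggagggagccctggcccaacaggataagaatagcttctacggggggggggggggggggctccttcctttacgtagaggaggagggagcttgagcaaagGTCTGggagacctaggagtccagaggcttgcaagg
Col6a3: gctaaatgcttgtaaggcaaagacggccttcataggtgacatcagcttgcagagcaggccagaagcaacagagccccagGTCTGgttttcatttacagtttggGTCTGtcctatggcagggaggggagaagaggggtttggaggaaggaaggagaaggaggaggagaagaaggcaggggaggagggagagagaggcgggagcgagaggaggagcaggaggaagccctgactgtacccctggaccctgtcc
Col16a1: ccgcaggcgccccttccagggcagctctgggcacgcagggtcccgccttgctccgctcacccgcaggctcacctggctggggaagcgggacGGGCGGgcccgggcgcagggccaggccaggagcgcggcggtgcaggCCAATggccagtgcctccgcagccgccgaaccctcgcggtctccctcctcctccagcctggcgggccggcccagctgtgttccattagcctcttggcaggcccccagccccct

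The motif of Sp-family factors, the GC box, was searched as GGGCGG and lay in 32.7% of the 250 bases upstream of 32851 RefSeq starts. The short Smad box was searched as CAGAC and lay in 42.2% of them. The site of TEAD factors, partners of Yap, was searched as GGAATG and lay in 12.6%. The box bound by the TATA-binding protein was searched as TATAAA and lay in 12.4%. The last motif, bound by NF-Y, was searched as CCAAT and lay in 33.8%. In the windows printed, Col6a2 held 1 GC box and 1 Smad box, Col6a3 held 2 Smad boxes and Col16a1 held 1 GC box and 1 NF-Y motif. Col6a1 held none of the 5, in a window of 126 bases where the others have 250. The full 250 bases upstream of its RefSeq start held none either, so no motif was in all 3 collagen VI windows. Col6a2 has a second RefSeq start, inside the gene. The 250 bases upstream of that start are not printed and held 3 GC boxes, 1 TEAD site and 0 Smad boxes. A match is a description of the letters and not of a bound site. The 250-base window of Col16a1 was 75.6% G and C, against a median of 52.4% over all promoters.

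Levels were also set relative to Col6a1 in the same library. The ratio of Col6a2 to Col6a1 was 0.377, 0.387 and 0.381 in the Panc02 libraries, 0.356, 0.356 and 0.369 in the KPC libraries and 0.353, 0.324 and 0.343 in the control libraries. No tumour exosome library overlapped the controls, although the nearest values of KPC and control differed by less than the spread within the control group. The ratio of Col6a3 to Col6a1 was 0.291, 0.309 and 0.283 in the Panc02 libraries, 0.270, 0.262 and 0.304 in the KPC libraries and 0.258, 0.249 and 0.261 in the control libraries. Its groups also did not overlap, with KPC replicate 2 at 0.262 next to control replicate 3 at 0.261. Averaged over both lines, the 2 ratios were 1.09-fold and 1.12-fold of those in control cells.

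These ratios, Col6a1 as their denominator, and the pooling of both tumour lines into 6 libraries were all chosen after the values had been seen. A total of 12 measures (11 ratios to Col6a1 and the collagen VI share described below) were set in 4 comparisons, making 48 tests. With 3 against 3 libraries, the exact permutation test (two-sided) cannot go below p = 0.1, which was the value of both collagen VI ratios for each line against control exosomes. Of all other tested genes, 15.1% were likewise higher relative to Col6a1 without overlap for Panc02 and 12.4% for KPC exosomes. With 6 against 3, both had p = 0.0238 in the exact permutation test, the smallest it can give, and an adjusted p of 0.0357 over the 12 measures. Permuting labels only among libraries of the same number, as a form of the replicate block, leaves 27 arrangements, and the exact test then cannot go below p = 0.0741. Both ratios had that p and an adjusted p of 0.0988, so neither passed. The same held for each of the other measures below whose adjusted p is given as 0.0357. Among all other tested genes, 8.99% were also higher relative to Col6a1 in all 6 tumour exosome libraries than in all 3 controls and 1.82% were lower. Among the 5 tested members other than Col6a1 it was 3 higher and 0 lower. Since Col6a1 itself had log2 fold changes of -0.10 and -0.13, the ratios cannot tell a higher numerator from a lower denominator.

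**Figure D2:**
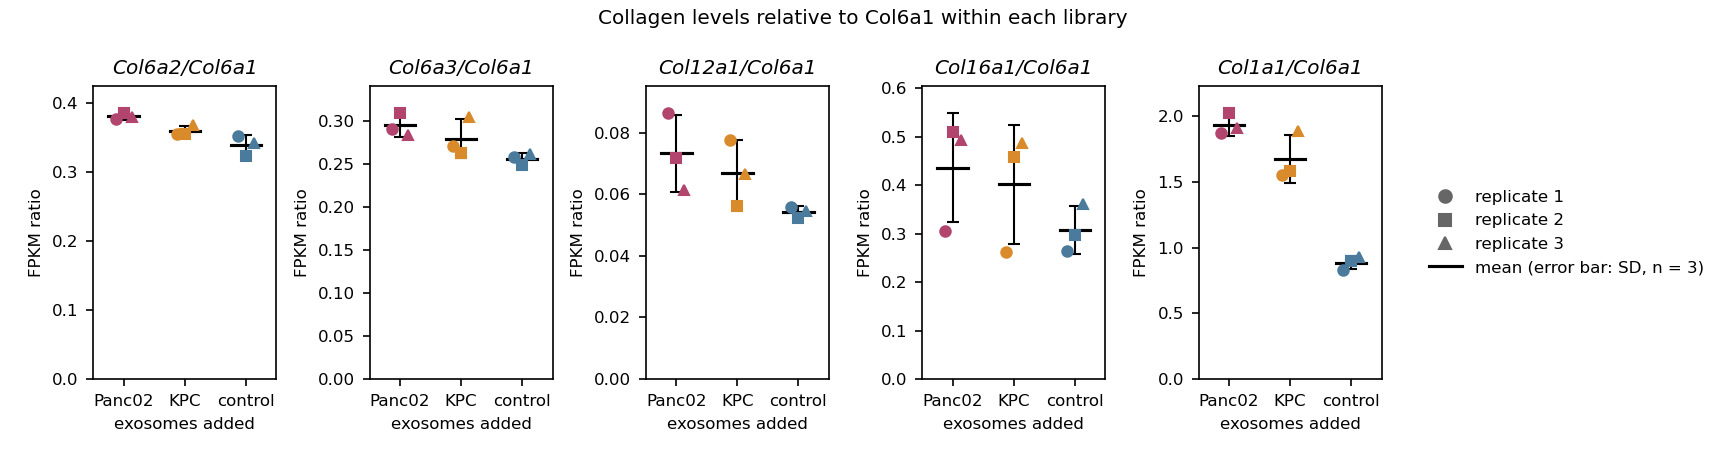
FPKM ratio of 5 collagen genes to Col6a1 in the same library (vertical axes, starting at 0), by the exosomes added. Points are libraries, with the symbol giving the replicate number, and bars are means with SD (n = 3). The ratio of Col1a1 to Col6a1 lies between 1.56 and 2.03 in the tumour exosome libraries and between 0.830 and 0.926 in controls, while the ratios of Col6a2 and Col6a3 shift by 1.09-fold and 1.12-fold and that of Col16a1 overlaps.

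Col8a1 encodes the alpha 1 chain of collagen VIII (chr16:57624258-57754737, minus strand). It had 24.1, 28.9 and 25.2 FPKM in the Panc02 libraries, 22.6, 28.0 and 29.4 FPKM in the KPC libraries and 23.0, 31.3 and 29.5 FPKM in the control libraries. The groups overlapped over most of their range. Its log2 fold change was -0.09 with Panc02 exosomes (-0.43 to 0.25) and -0.06 with KPC exosomes (-0.40 to 0.28). In the blocked fit the intervals were -0.28 to 0.10 and -0.25 to 0.13. Relative to Col6a1 the level was 1.03-fold that of controls over both lines, with overlapping groups and an adjusted p of 0.779 in the exact permutation test.

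Col12a1, which encodes the fibril-associated collagen XII (chr9:79598991-79718831, minus strand, 66 exons in its longest transcript), was the single member whose FPKM did not overlap between a tumour exosome group and the controls. It had 8.38, 8.71 and 7.35 FPKM in the Panc02 libraries, 6.79, 6.61 and 8.49 FPKM in the KPC libraries and 6.27, 6.55 and 6.71 FPKM in the control libraries. Every Panc02 library lay above every control, while the KPC library numbered 2 lay inside the control range. Of all tested genes, 16.1% did not overlap between Panc02 and control libraries and 6.79% were higher in this way, beside 1 of 6 members. Between KPC and control libraries 0 of 6 members were separate, where 11.4% of tested genes were.

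The log2 fold change of Col12a1 with Panc02 exosomes was 0.28 ± 0.11 (SE), with a 95% interval of 0.02 to 0.54, or 1.22-fold. Its unadjusted p was 0.0373 in limma and its adjusted p 0.460, so it did not pass, and with the replicate block its adjusted p was 0.223. With KPC exosomes the log2 fold change was 0.14 (-0.12 to 0.40). Between libraries of the same replicate number, Panc02 exceeded control by 0.37, 0.36 and 0.11 on the log2 scale. That direction is fixed in advance, since every Panc02 library lay above every control. For KPC the differences were 0.10, 0.01 and 0.30. The share of all tested genes with every pair in one direction is not given here, so these signs are description only. Relative to Col6a1, Col12a1 stood at 1.28-fold of controls over both lines, with an adjusted p of 0.0357 in the exact permutation test over the 12 measures chosen after seeing the values, and 0.0988 with the replicate block.

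Col16a1 encodes collagen XVI, a fibril-associated collagen (chr4:130047840-130099283, plus strand, 70 exons in its longest transcript). It had 29.7, 61.8 and 59.2 FPKM in the Panc02 libraries, 22.9, 53.9 and 62.2 FPKM in the KPC libraries and 29.5, 37.2 and 44.4 FPKM in the control libraries. The replicate 1 library was the lowest of its group each time, and with it the groups overlapped. The replicates 2 and 3 of both tumour exosome groups lay above all 3 controls.

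Over all libraries, the log2 fold change of Col16a1 was 0.38 with Panc02 exosomes (-0.55 to 1.30) and 0.21 with KPC exosomes (-0.71 to 1.14), both with adjusted p above 0.9 in limma. These intervals are the widest among the members. With the replicate block, the Panc02 interval was -0.01 to 0.77 and the adjusted p 0.285, and the KPC interval was -0.18 to 0.60 with an adjusted p of 0.641. Without the 3 libraries numbered 1, Col16a1 passed the test for Panc02 exosomes, with a log2 fold change of 0.56 and a limma adjusted p of 0.0368. It was then 1 of 6 members called, beside 4.74% of all genes. For KPC exosomes the log2 fold change without them was 0.50 and the limma adjusted p 0.0701, and 0 of 6 members were called beside 1.93% of all genes. Among the other alternatives run for Panc02 against control exosomes, Col16a1 did not pass.

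Within pairs of the same replicate number, Col16a1 in Panc02 libraries exceeded the control by 0.01, 0.71 and 0.40 on the log2 scale. In KPC libraries the differences were -0.36, 0.52 and 0.48. The pairs numbered 2 and 3 thus lay well above 0 for both lines. The pair numbered 1 lay barely above 0 for Panc02 and below 0 for KPC exosomes.

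**Figure D3:**
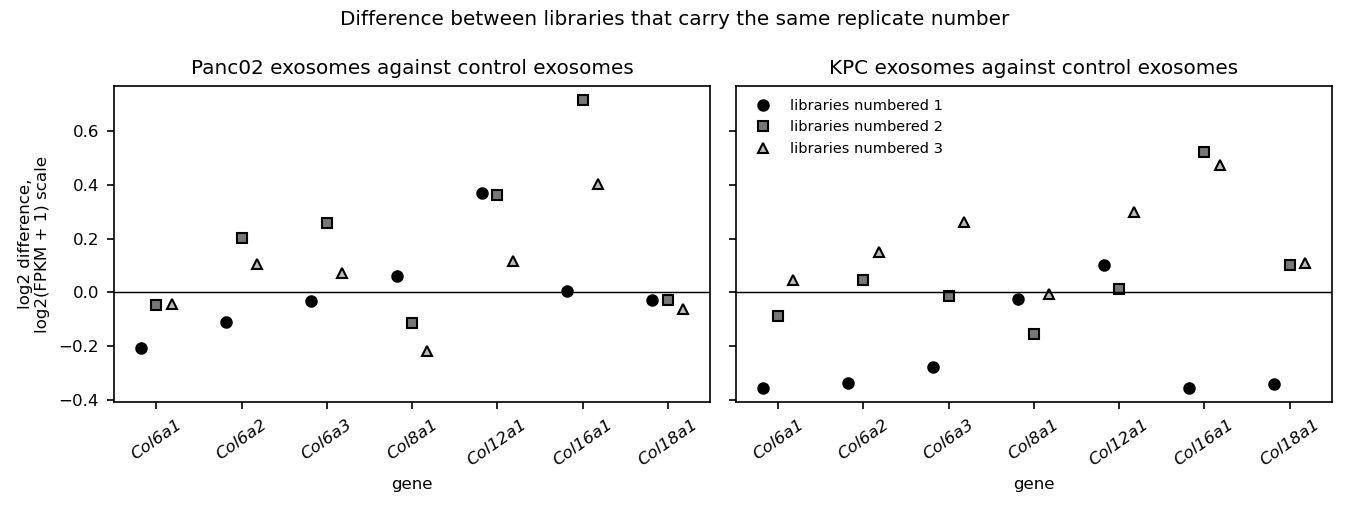
Difference on the log2(FPKM + 1) scale between libraries that carry the same replicate number (vertical axes), for the 7 members (horizontal axes), with Panc02 against control exosomes at left and KPC against control exosomes at right. Each point is 1 pair of libraries and the symbol gives its number. Col12a1 lies above 0 in all 3 pairs for both lines, which for Panc02 exosomes follows from groups that do not overlap. Col16a1 lies at 0.01 and -0.36 in the pairs numbered 1, against 0.40 to 0.71 in the others.

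The gap between replicate 1 and the others was larger for Col16a1 than for the other members. On the log2 scale, its replicate 1 library differed from the mean of replicates 2 and 3 by -1.003 in Panc02, -1.30 in KPC and -0.45 in control libraries. The median over all tested genes was -0.15, -0.21 and -0.12 in Panc02, KPC and control libraries. The collagen VI genes differed by -0.33 to -0.31 in Panc02, -0.53 to -0.48 in KPC and -0.15 to -0.07 in control libraries. Col12a1 differed by 0.06, -0.13 and -0.07 in Panc02, KPC and control libraries. The 8 tested fibrillar collagens had median gaps of -0.50, -0.79 and -0.28. These gaps stood beside the higher mitochondrial share of the libraries numbered 1.

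Col18a1, which encodes the precursor of endostatin (chr10:77052178-77166548, minus strand), was the lowest member. It had 0.721, 0.711 and 0.630 FPKM in the Panc02 libraries, 0.384, 0.870 and 0.834 FPKM in the KPC libraries and 0.755, 0.743 and 0.701 FPKM in the control libraries. The KPC libraries spanned both other groups, with replicate 1 lowest and replicates 2 and 3 highest of all 9. It fell outside the filter on low values and was not tested. When no filter was applied, its log2 fold change was -0.04 with either line, with a limma adjusted p of 1.00, a low level at which differences are compressed by the added 1 FPKM.

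Between the tumour lines, the members had log2 fold changes of -0.03 (Col8a1) to 0.16 (Col16a1), Panc02 over KPC. The 95% intervals ran from -0.33 to 0.39 for Col6a1, -0.25 to 0.48 for Col6a2, -0.30 to 0.51 for Col6a3, -0.37 to 0.31 for Col8a1, -0.12 to 0.40 for Col12a1 and -0.76 to 1.09 for Col16a1. All 6 members overlapped between the lines, where 2.62% of tested genes did not. Col12a1 averaged 8.14 ± 0.711 FPKM with Panc02 and 7.30 ± 1.04 FPKM with KPC exosomes (SD, n = 3 each), a difference smaller than the spread of the KPC libraries.

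The fibrillar collagens form the fibrils that these members accompany in the matrix. Of 11 listed fibrillar collagen genes, 9 had a row and 8 were tested, and 0 passed for either line. With the replicate block 5 of 8 were higher for Panc02 and 2 of 8 for KPC exosomes, beside 4.24% and 1.68% of all tested genes called in either direction. Their median log2 fold change was 0.82 with Panc02 and 0.60 with KPC exosomes, beside 0.08 and -0.03 for the members, and the difference between the lists was not tested. The lists overlapped. Col11a2, a collagen XI chain, had 0.15 with Panc02 and 0.18 with KPC exosomes, and Col1a2, the alpha 2 chain of collagen I, had 0.37 and 0.23, next to 0.38 and 0.21 for Col16a1. Col1a1, the alpha 1 chain of collagen I, had a log2 fold change of 1.02 with Panc02 (limma adjusted p = 0.0755, block 0.00407) and 0.78 with KPC exosomes (0.302, block 0.0224). For Col3a1, collagen III, the values were 0.75 (0.268, block 0.0134) and 0.58 (0.682, block 0.0560), and for Col5a2, a collagen V chain, 0.90 (0.0795, block 0.00756) and 0.63 (0.393, block 0.0476). Col27a1 had 0.66 with Panc02 exosomes (0.154, block 0.0525).

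**Figure D4:**
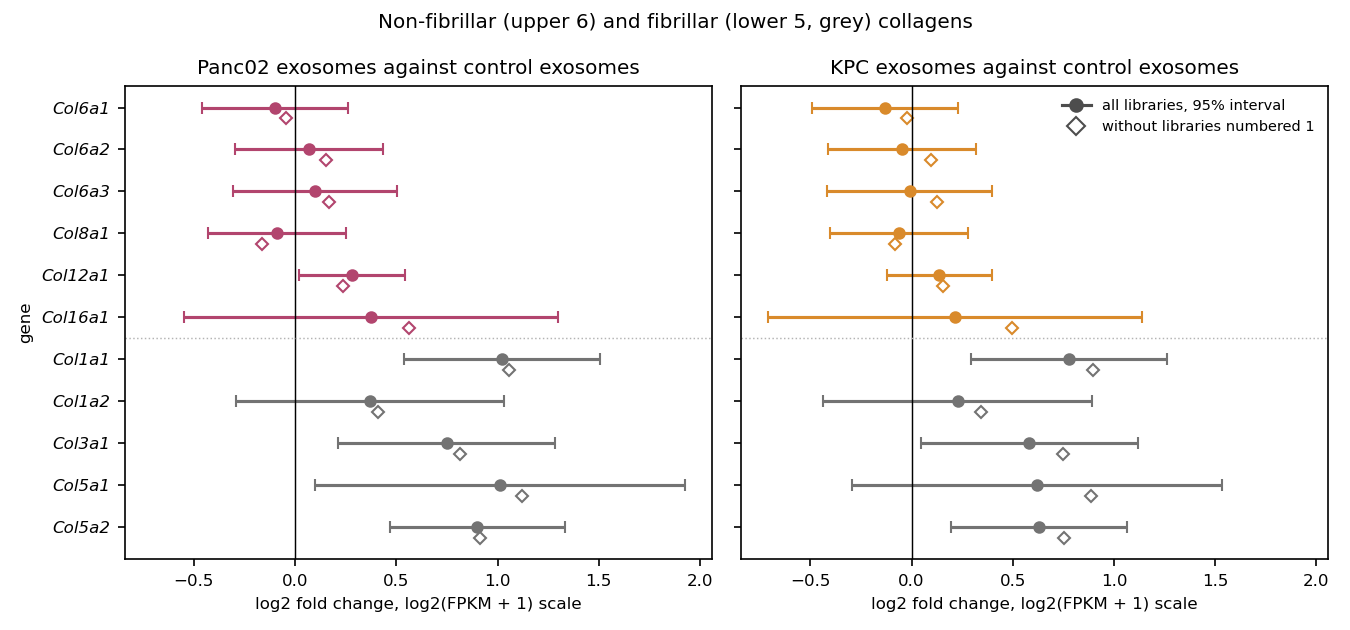
Log2 fold change on the log2(FPKM + 1) scale (horizontal axes) of 6 members (upper rows) and 5 fibrillar collagens (lower rows, grey), with Panc02 against control exosomes at left and KPC against control exosomes at right. Filled points with bars are limma estimates over all 9 libraries with 95% intervals, and open diamonds are estimates without the 3 libraries numbered 1. The filled points of Col6a1, Col6a2, Col6a3 and Col8a1 lie between -0.13 and 0.10 in both panels, and those of Col1a1 lie at 1.02 and 0.78. Points of the members Col12a1 and Col16a1 and of the fibrillar Col1a2 lie between these, so the classes overlap.

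Within libraries, the ratio of Col1a1 to Col6a1 was 1.87, 2.03 and 1.91 in the Panc02 libraries, 1.56, 1.58 and 1.89 in the KPC libraries and 0.830, 0.900 and 0.926 in the control libraries. The groups lay far apart relative to their spread, at 2.19-fold for Panc02 and 1.89-fold for KPC exosomes. The exact permutation test gave p = 0.1 for each line, the smallest 3 against 3 libraries allow, and an adjusted p of 0.0357 for both lines together (0.0988 with the replicate block). Col3a1, Col5a1 and Col5a2 stood at 1.75-fold, 1.94-fold and 1.87-fold of controls relative to Col6a1, with the same adjusted p values. Each of these calls, and that of the collagen VI share, was also lost without any one control library, where the exact permutation test cannot go below p = 0.0714. For Col1a2 it was 1.34-fold with an adjusted p of 0.0635, and for Col16a1 1.33-fold with an adjusted p of 0.200, in the same exact permutation tests.

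The collagen VI genes made up 21.7%, 19.0% and 19.7% of the FPKM summed over all 24 collagen genes in the Panc02 libraries. They made up 24.3%, 21.4% and 19.7% in the KPC libraries and 30.3%, 26.7% and 26.8% in the control libraries. The share was lower in every tumour exosome library than in any control, at 0.749-fold over both lines (adjusted p = 0.0357, exact permutation test, and 0.0988 with the replicate block). The summed collagen VI level itself overlapped, at 162, 206 and 199 FPKM in Panc02, 142, 191 and 213 in KPC and 181, 197 and 198 in control libraries. The fibrillar genes summed to 414, 615 and 568 FPKM in Panc02, 312, 480.0 and 605 in KPC and 258, 345 and 335 in control libraries, and overlapped only through KPC replicate 1.

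**Figure D5:**
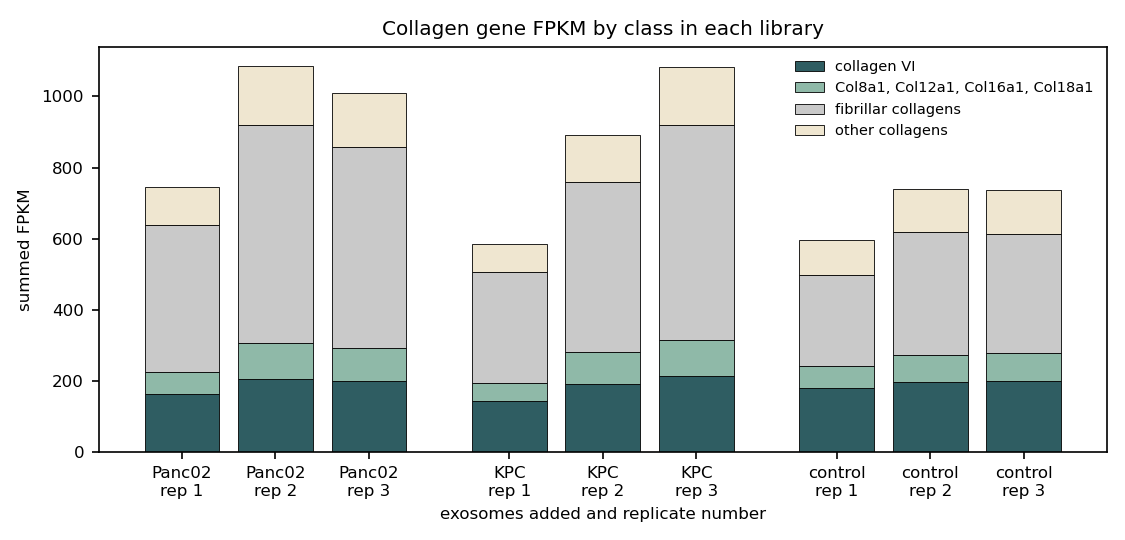
FPKM summed over the 24 collagen genes with a row (vertical axis, starting at 0) in each library, split into collagen VI, the other 4 members with a row, fibrillar collagens and other collagens. The collagen VI segment runs from 142 to 213 FPKM in all 9 libraries, while the fibrillar segment is 312 to 615 FPKM in the tumour exosome libraries and 258 to 345 FPKM in controls.

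Other non-fibrillar collagens, 8 of 25 with a row and 5 tested, had 0 calls for either line. With the replicate block Col4a6, a basement membrane chain, was lower for both lines and Col7a1, the anchoring fibril collagen, was higher for Panc02 exosomes. Of all tested genes, 4.24% were called with the block for Panc02 and 1.68% for KPC exosomes. Col7a1 averaged 1.37 ± 0.269 FPKM with Panc02, 0.810 ± 0.532 with KPC and 0.211 ± 0.0484 with control exosomes (SD, n = 3 each). Col7a1 passed the filter on low values only with the Panc02 libraries, where it was high, so its block call is no independent support. Its log2 fold change was 0.96 with Panc02 (limma adjusted p = 0.0626, block 0.0185) and 0.54 with KPC exosomes (0.530, block 0.173). Col4a6 had -0.55 (0.582, block 0.0222) and -0.52 (0.881, block 0.0485). Col4a2 had 0.42 with Panc02 exosomes (0.697, block 0.153) and Col4a5 had -0.34 with KPC exosomes (adjusted p = 1.00, block 0.219).

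Of 13 listed collagen receptors, 7 were tested and 0 passed for either line. With the replicate block 1 passed for Panc02 and 0 for KPC exosomes, beside 4.24% and 1.68% of all tested genes. It was Cspg4, the NG2 proteoglycan that binds collagen VI, with a log2 fold change of 0.91 (limma adjusted p = 0.439, block 0.0195), and 0.59 with KPC exosomes (adjusted p = 1.00, block 0.126). Itgb1, the beta 1 integrin subunit shared by collagen-binding integrins, had 0.23 and 0.13 (adjusted p = 0.396 and 1.00 in limma). Ddr2, a receptor kinase for collagens, had -0.57 with Panc02 exosomes (0.687). It stood at 12.4 FPKM in Panc02 replicate 1, against 28.8 to 34.7 in the other 8 libraries, and at -0.15 without the libraries numbered 1. Antxr1, which binds collagen VI, had -0.13 with KPC exosomes (adjusted p = 1.00).

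Among 16 listed matrix partners, 10 were tested, and 1 was called for Panc02 and 0 for KPC exosomes, beside 1.01% and 0.328% of all tested genes. Bgn encodes biglycan, a small proteoglycan that binds collagen VI. It averaged 181 ± 28.0 FPKM with Panc02, 166 ± 9.84 with KPC and 95.8 ± 10.5 with control exosomes (SD, n = 3 each). It rose with Panc02 exosomes (log2 fold change 0.91, limma adjusted p = 0.0234) and stood at 0.79 with KPC exosomes (0.0786, block 0.00865). The call was lost without Panc02 replicate 1 or 2 or control replicate 2 or 3 (0.0522 to 0.135). It was also lost with equal non-mitochondrial totals (limma adjusted p = 0.0524), equal medians (0.0729) and only the 2 groups compared (0.0592). With the replicate block the list had 5 higher and 2 lower for Panc02 and 2 higher for KPC exosomes. Of all tested genes, 1.85% were higher and 2.39% lower with the block for Panc02, and 0.588% were higher for KPC exosomes. Dcn, encoding decorin, had -0.67 (0.0803, block 0.0360) and -0.45 (0.443, block 0.187). Fmod, fibromodulin, had 1.28 with Panc02 exosomes (0.0808, block 0.0490). It had 1.32, 3.34 and 1.16 FPKM in Panc02 and 0.481, 0.501 and 1.15 in KPC libraries. In control libraries it had 0.324, 0.0233 and 0.111 FPKM. Fmod passed the filter on low values only with the Panc02 libraries, where it was high, so its block value is no independent support. Fbln2, fibulin 2, had 0.96 with KPC exosomes (0.682, block 0.0187). The median of the list was 0.31 with Panc02 and 0.13 with KPC exosomes.

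Of 13 listed proteases, 6 were tested and 0 passed. With the replicate block 1 was higher for Panc02 and 0 for KPC exosomes, beside 1.85% and 0.588% of all tested genes. Untested Mmp13 had 0.901, 0.941 and 0.904 FPKM in Panc02 and 0.824, 0.670 and 0.660 in KPC libraries. In control libraries it had 0.130, 0.0855 and 0.110 FPKM. Mmp3, also untested, had 0.0483 to 0.552 FPKM in tumour exosome libraries and 0 in every control. The untested Mmp9 and Ctss overlapped between groups. Bmp1, a procollagen C-proteinase, had a log2 fold change of 0.54 with Panc02 (limma adjusted p = 0.503, block 0.0202) and 0.42 with KPC exosomes (0.975, block 0.0786). Ctsb and Ctsk, lysosomal cathepsins, had -0.28 and -0.18 with Panc02 exosomes and -0.25 and -0.17 with KPC exosomes, all with adjusted p above 0.9.

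Among receptors and targets of collagen fragments, all 7 of 8 with a row were tested. Of these, 2 were called for Panc02 and 1 for KPC exosomes, beside 1.01% and 0.328% of all tested genes. Vegfa, the vascular growth factor opposed by endostatin, averaged 33.2 ± 1.47 FPKM with Panc02, 27.8 ± 3.21 with KPC and 16.6 ± 0.356 with control exosomes (SD, n = 3 each). It rose with both lines, by 0.95 (limma adjusted p = 0.00431) and 0.70 (0.0291) on the log2 scale. The Panc02 call held without each of the 9 libraries in turn. The KPC call was lost without each of them except Panc02 replicate 1 (0.0514 to 0.198), and with only the 2 groups compared (0.151). It was also lost with equal non-mitochondrial totals (limma adjusted p = 0.0617) and with equal medians (0.0767). Itgb3, the beta 3 integrin subunit, rose by 0.89 with Panc02 exosomes (0.0158) and stood at 0.63 with KPC exosomes (0.137, block 0.0560). The Panc02 call of Itgb3 was lost without Panc02 replicate 1 or 2 or control replicate 2 or 3 (0.0591 to 0.111). Its partner Itgav had 0.66 with Panc02 (0.0663, block 0.0368) and 0.40 with KPC exosomes (0.471, block 0.229). With the block, 4 of 7 were higher for Panc02 and 1 of 7 for KPC exosomes, beside 1.85% and 0.588% of all tested genes.

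Of 16 tested folding and export genes, 1 was called for Panc02 and 0 for KPC exosomes, beside 1.01% and 0.328% of all tested genes. With the replicate block 4 and 2 were higher, beside 1.85% and 0.588% of all tested genes. Plod2, a lysyl hydroxylase that acts on collagen chains, averaged 26.2 ± 0.503 FPKM with Panc02, 25.5 ± 0.944 with KPC and 18.01 ± 1.08 with control exosomes (SD, n = 3 each). It rose with Panc02 exosomes (log2 fold change 0.52, limma adjusted p = 0.0272) and stood at 0.48 with KPC exosomes (0.0786, block 0.0163). The Panc02 call was lost without each library except KPC replicates 1 and 3 (0.0672 to 0.152), and with only the 2 groups compared (0.0752). The prolyl hydroxylase subunits P4ha3 and P4ha2 had 0.45 (0.116, block 0.0330) and 0.57 (0.177, block 0.0127) with Panc02 exosomes. P4ha2 and P4hb had 0.49 (0.425, block 0.0398) and 0.35 (0.975, block 0.138) with KPC exosomes.

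A list of TGF-beta and stellate activation genes was set beside the others. Like every list here, it was chosen with earlier results of these data known. Of its 9 tested genes, 2 were called for each line, beside 1.01% and 0.328% of all tested genes for Panc02 and KPC exosomes. Ctgf, which encodes connective tissue growth factor, rose by 1.41 with Panc02 (limma adjusted p = 0.00284) and 0.96 with KPC exosomes (0.0247) on the log2 scale. Pmepa1, a TGF-beta target that dampens Smad signalling, rose by 2.17 (0.00310) and 1.51 (0.0259). The Panc02 calls of both held without each library in turn. Their KPC calls were lost without each library except Panc02 replicate 1 and KPC replicate 1 (0.0626 to 0.169), and with only the 2 groups compared (0.133 and 0.151). Acta2, smooth muscle actin, had 0.66 (0.102, block 0.00860) and 0.51 (0.371, block 0.0404). With the block 7 and 4 of the 9 were higher for Panc02 and KPC exosomes, beside 1.85% and 0.588% of all tested genes. These lists and the members were described by their counts and medians alone.

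The genes with the profile most like each member were sought only among tested genes that are not members. The measure was the root mean square difference of log2(FPKM + 1) over the 9 libraries, each profile centred on its own mean. For Col6a1 the nearest were Gpd1l, Ccdc32 and Arvcf, at 0.0278 to 0.0398, against an SD of Col6a1 over the libraries of 0.183. Plcg1 and Akna were among the nearest to Col6a2, and Smoc1 and Itpripl1 among the nearest to Col6a3. Col8a1 was nearest to March6, Ttc5 and Aagab, Col12a1 to Tanc1, Nrp2 and Hivep1, and Col18a1 to Fan1, Il17ra and Tvp23a. Col16a1, with an SD of 0.525, was nearest to P3h4 (0.0401), Dok1 and Mvd. All these profiles carry the replicate 1 libraries.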

How the data were processed

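RNA of mouse hepatic stellate cells was sequenced in 9 TruSeq libraries, per the labels' protocols. The authors deposited FPKM per gene, and the submitters' processing notes name cutadapt, HISAT2 2.0.4, StringTie 1.2.3 and GRCm38. Whether counting used strand is not given in the sources used here. FPKM show no whole-read steps, so the depth is unknown and no counting interval is given. The table held 11051 genes, and 683 were set aside because they did not reach 1 FPKM in at least 3 libraries. Some genes, Col7a1, Col11a2, Col27a1, Fmod, Itgb3 and Mfap4 among them, passed this filter through tumour exosome libraries alone, since no control library reached 1 FPKM. limma 3.58.1 (R 4.3.3) was fitted on log2(FPKM + 1) with a trended prior over all 9 libraries, with 6 residual and 2.38 prior degrees of freedom, and was tested on simulated data. Fold changes on this scale understate those of low genes. Libraries were grouped by title and treatment protocol. The labels do not say that libraries of a group came from separate cultures, so p-values measure the spread between these samples, which may be technical. Members, lists and tests were chosen with earlier results of these data known. Named genes were all members, called genes of each list or else its 3 lowest p, and Col1a1 and Col3a1.

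Same-numbered libraries deviated from their group means together (correlations 0.639 to 0.810 for number 1, 0.243 to 0.420 for number 2 and 0.380 to 0.511 for number 3). Every pair was above 0.1, so the numbers were taken to pair the libraries, from the data and not from the labels. Libraries numbered 2 and 3 in different groups also correlated (0.299 to 0.613), so the data set apart number 1 and not 2 from 3. Deviations cancel within each group, so a number 1 that stands apart by itself gives numbers 2 and 3 positive correlations. The correlations thus cannot decide whether numbers 2 and 3 pair the libraries. A fit with the number as a block (4 residual and 3.51 prior degrees of freedom) is given where it changes a call or moves a count. Alternatives were a pseudocount of 0.1, no filter, an untrended prior, 2 other scalings, fits of only the groups compared, and fits without single libraries or without those numbered 1. Single ratios were tested with exact permutation tests (scipy 1.17.1). Coordinates are those of the deposited table, the same as in GENCODE M21. One gene that the rule on similar profiles names is not reported here.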

Additional observations from a re-analysis of the deposited data

How the results depend on the processing

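No member passed in any alternative except Col16a1 for Panc02 against control exosomes without the 3 libraries numbered 1, which gave 1 member called. The count of genes called for Panc02 against control exosomes (105) was 440 with the replicate block and 488 without the libraries numbered 1. For KPC against control exosomes (34) it was 174 with the replicate block, 22 with equal medians, 0 with only the 2 groups compared and 199 without those numbered 1, and for Panc02 against KPC exosomes (0) it was 8 without them. The replicate block changed no call of a member, and its calls in the other lists are given with each list. Leaving out each library in turn gave 23 to 126, 0 to 34 and 0 to 1 genes called for Panc02 against control, KPC against control and Panc02 against KPC exosomes. For Panc02 against control exosomes the count was 47, 28 and 46 without Panc02 replicate 1, 2 or 3, 63 without KPC replicate 2, and 53, 26 and 23 without control replicate 1, 2 or 3. For KPC against control exosomes it was 8 without Panc02 replicate 2 or 3, 7 and 4 without KPC replicate 2 or 3, and 0 without any one control. Without the libraries numbered 1, the log2 fold change turned to 0.10 for Col6a2 and 0.13 for Col6a3 with KPC exosomes and to -0.0245 for Col6a1 between the lines. With equal non-mitochondrial totals, Col6a3 turned to 0.0107 with KPC exosomes. Leave-one-out ranges that crossed 0 were, for Panc02 against control exosomes, -0.16 to 0.00433 (Col6a1), and for KPC against control exosomes -0.24 to 0.0288 (Col6a1), -0.17 to 0.12 (Col6a2), -0.18 to 0.17 (Col6a3), -0.19 to 0.0497 (Col8a1) and -0.0542 to 0.65 (Col16a1). Between the lines they were -0.13 to 0.14, -0.0535 to 0.24, -0.0694 to 0.28, -0.14 to 0.0445 and -0.27 to 0.50 for Col6a1, Col6a2, Col6a3, Col8a1 and Col16a1. These members were not called, and the cause was not tested.

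Of the ratios chosen after seeing the data, those of Col8a1 and Col18a1 to Col6a1 changed direction without the libraries numbered 1. For Col8a1 the log2 differences became -0.13 (Panc02), -0.0616 (KPC) and -0.0937 (both lines), and for Col18a1 -0.0647 (Panc02), 0.26 (KPC) and 0.0975 (both lines). Their leave-one-out ranges were -0.0768 to 0.0759, -0.0153 to 0.13 and -0.0460 to 0.0961 for Col8a1 and -0.14 to 0.11, -0.19 to 0.19 and -0.0739 to 0.0780 for Col18a1. The pooled ratios of Col6a2, Col6a3 and Col12a1 kept their sign when single libraries were left out, at 0.09 to 0.15, 0.14 to 0.19 and 0.29 to 0.42. The calls of these, of Col1a1, Col3a1, Col5a1 and Col5a2 and of the collagen VI share were lost with labels permuted within the replicate numbers (adjusted p 0.0988), without the libraries numbered 1 (0.145), without any of the 3 controls, where the exact permutation test of 6 against 2 libraries cannot go below p = 0.0714 (adjusted p 0.0952 to 0.107), and without any tumour exosome library except KPC replicate 1 (adjusted p 0.0536). The depth is unknown, so no counting error could be given for Col18a1.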
